A study of Homo sapiens with 4 samples.

Results

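The mitochondrial genome was described through the 37 rows of the count table whose symbols start with MT-, of 37450 rows in all. They are 13 genes for proteins of the respiratory chain, 2 genes for ribosomal RNAs (rRNAs) and 22 genes for transfer RNAs (tRNAs). They were chosen by name, with earlier results of these data known, and all 37 passed the filter on low counts. RNA was sequenced from 143B cells, a human osteosarcoma line, at day 2 after lipid transfection of a small interfering RNA (siRNA). In the siCBX3 group the siRNA targeted CBX3, which encodes a heterochromatin protein that binds methylated histone H3, and in the siNC group it targeted no gene. Each group had 2 libraries, the labels give wild-type genotype for both groups, and the libraries were made from total RNA with a stranded mRNA kit. The number of siRNAs per group is not given in the sources used here, and a single cell line bounds what the groups can stand for. The labels do not state whether replicates came from separate cultures, so the spread among these 4 libraries can be technical. The p-values rest on that spread. Those of edgeR, the main test, rest mostly on spread pooled over all genes tested, so they can understate the scatter of a single gene.

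Mitochondrial DNA is a small circle present in many copies per cell. Its strands are copied into long RNAs that cover many genes each, and most mRNAs and both rRNAs are separated from each other by tRNAs, whose excision frees their neighbours. The mRNAs encode subunits of complexes I, III, IV and V, and the rRNAs and tRNAs serve the ribosomes that translate those mRNAs inside the organelle. 143B cells lack thymidine kinase and are known as the parent of cells depleted of mitochondrial DNA. In RNA from a whole culture, fewer mitochondrial genomes per cell and less RNA per genome cannot be told apart.

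The tRNA genes with the largest differences are shown here as DNA of the RNA's own strand, from GENCODE 29 transcripts (GRCh38). Capitals mark the anticodon, found as the middle of a loop closed by a paired stem. The first 6 were higher in siCBX3 and the last 2 were lower. Of these, MT-TA, MT-TN, MT-TC and MT-TY stand next to each other on the minus strand, and MT-TV stands between the rRNA genes on the plus strand.
MT-TV: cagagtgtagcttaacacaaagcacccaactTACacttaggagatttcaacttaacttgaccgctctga
MT-TA: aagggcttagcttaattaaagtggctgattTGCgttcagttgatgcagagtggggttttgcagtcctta
MT-TN: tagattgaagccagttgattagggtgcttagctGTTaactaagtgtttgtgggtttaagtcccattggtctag
MT-TC: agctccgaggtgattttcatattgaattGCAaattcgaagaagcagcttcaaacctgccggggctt
MT-TY: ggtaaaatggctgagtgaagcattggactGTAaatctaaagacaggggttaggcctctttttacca
MT-TP: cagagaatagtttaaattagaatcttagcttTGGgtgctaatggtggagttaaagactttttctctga
MT-TI: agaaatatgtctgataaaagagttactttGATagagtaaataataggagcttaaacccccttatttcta
MT-TG: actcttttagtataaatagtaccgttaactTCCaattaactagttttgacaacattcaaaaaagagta

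Neighbouring protein genes also share bases, and the junctions below show where a read cannot be assigned to 1 gene. Capitals mark the 46 bases that MT-ATP8 and MT-ATP6 share (MT, 8527 to 8572) and the 7 bases that MT-ND4L and MT-ND4 share (MT, 10760 to 10766).
MT-ATP8/MT-ATP6: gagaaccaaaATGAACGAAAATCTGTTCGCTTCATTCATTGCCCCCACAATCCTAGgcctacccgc
MT-ND4L/MT-ND4: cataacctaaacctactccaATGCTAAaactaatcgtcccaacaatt

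The libraries held 36509298 and 38717507 counts in siCBX3 and 37318382 and 40336907 counts in siNC. The targeted gene CBX3 had 57.3 and 57.1 CPM (counts scaled to a common library size by TMM) in siCBX3 libraries, against 539 and 508 CPM in siNC libraries. Of the 10 mesenchymal and osteosarcoma markers 8 were tested, and 5 of these were called higher and none lower (adjusted p under 0.05 in edgeR, against 24.4% and 24.0% of all genes). Their CPM summed to 3406 and 3320 in siCBX3 and to 1160 and 1184 in siNC. VIM had 1414 and 1425 CPM in siCBX3 and 651 and 757 CPM in siNC, SPARC had 1782 and 1683 CPM in siCBX3 and 358 and 285 CPM in siNC, and ALPL and SP7 stayed at or under 0.106 CPM in every library. The part of this difference in the mitochondrial values was not tested. The 5 leukocyte markers summed to 1.87 and 2.64 CPM in siCBX3 and to 2.47 and 2.07 CPM in siNC, and the 4 endothelial ones to 2.89 and 1.82 CPM in siCBX3 and to 2.79 and 2.52 CPM in siNC. The 3 epithelial markers summed to 12.5 and 14.2 CPM in siCBX3 and to 17.8 and 17.7 CPM in siNC.

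Ribosomal RNA, nearly all of it MT-RNR2, took a larger part of the mitochondrial counts in both siCBX3 libraries than in both siNC libraries. The total mitochondrial share overlapped between the groups. The 37 genes took 9.33% and 7.96% of all counts in siCBX3 replicates 1 and 2, against 9.80% and 8.04% in siNC replicates 1 and 2. Counting error was small, since the 95% Wilson interval of the first siCBX3 value was 9.32% to 9.34%, which covers counting error only. The groups overlapped, and in both the replicate 1 library was the higher. The mean share was 8.65% ± 0.968 in siCBX3 and 8.92% ± 1.24 in siNC (SD, n = 2 each). The log2 ratio of these shares was -0.04, and it was 0.03 when counts were divided by the TMM-scaled library size, so it has no settled direction.

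By class, protein genes held 7.42% and 6.22% of all counts in siCBX3, against 8.69% and 7.15% in siNC, with overlapping groups. The rRNA genes held 1.76% and 1.61% in siCBX3, against 0.983% and 0.776% in siNC. Both siCBX3 libraries lay above both siNC libraries. The tRNA genes held 0.145% and 0.132% in siCBX3, against 0.124% and 0.115% in siNC, again without overlap. The log2 ratio of the mean shares was -0.22 for the protein class, 0.94 for the rRNA class and 0.22 for the tRNA class. Within the mitochondrial counts alone, rRNA made up 18.9% and 20.2% in siCBX3 and 10.0% and 9.65% in siNC. Protein genes made up 79.6% and 78.1% of the mitochondrial counts in siCBX3 and 88.7% and 88.9% in siNC. No test was made over these sums, because they add up the members.

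**Figure D1:**
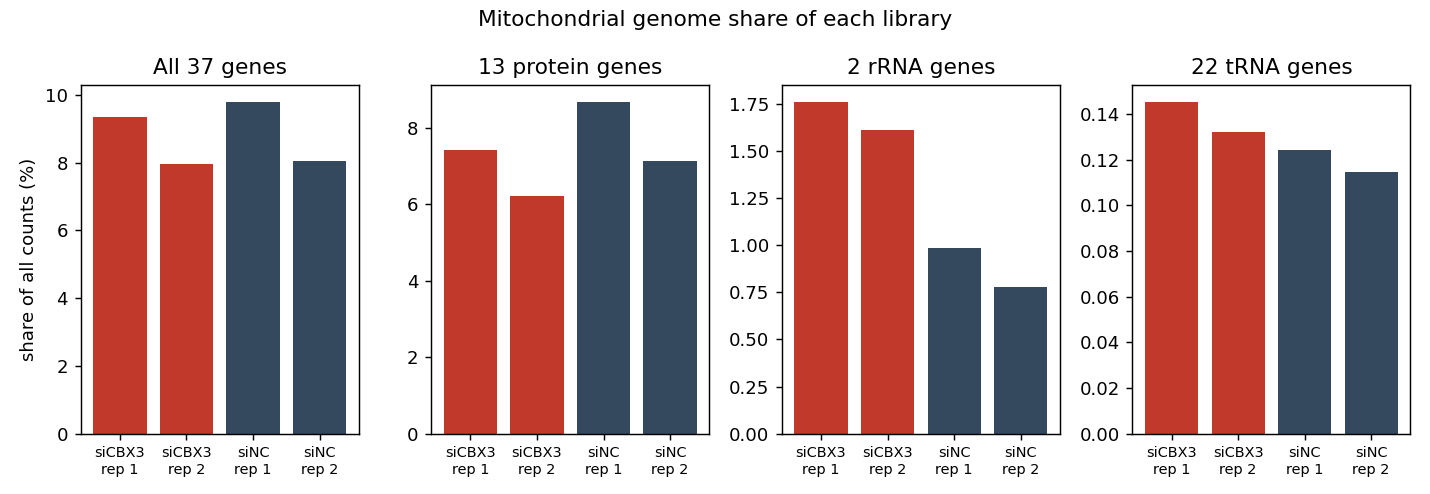
Share of all counts (%, axis from 0) held by all 37 mitochondrial genes, the 13 protein genes, the 2 rRNA genes and the 22 tRNA genes, with 1 bar for each library. The rRNA bars of siCBX3 (1.76% and 1.61%) stand above those of siNC (0.983% and 0.776%), while the protein bars of the groups overlap. Nearly all rRNA counts are those of MT-RNR2.

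Gene by gene, 8 of the 37 members were called higher in siCBX3 and 14 lower, at an adjusted p under 0.05 in edgeR's quasi-likelihood test over all 20999 genes tested. Of all genes tested, 24.4% were called higher and 24.0% lower, so the 21.6% of members called higher lies near the background and the 37.8% called lower lies above it. The median log2 fold change was -0.14 over the members and -0.01 over all genes tested. By class, none of the 13 protein genes was called higher and 6 were called lower, while the tRNA genes had 7 called higher and 8 lower, and of the rRNA genes 1 was called higher and 1 was not called. Without siNC replicate 1 the members called numbered 15 higher and 10 lower, against 22.4% and 21.5% of all genes. With each library scaled to its own MT- protein counts they numbered 7 higher and 1 lower, and over all genes the calls then fell to 11.7% higher and 5.73% lower. Of the 15 members not called, most were called in some fit that left out a library, where 1 group rests on a single library. The matching share over all genes was not counted. DESeq2 did not call MT-ATP8, MT-ND4L or MT-ND4 lower (adjusted p = 0.190, 0.435 and 0.376), and limma on log2 RPKM called neither these nor MT-TR and MT-TS1.

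**Figure D2:**
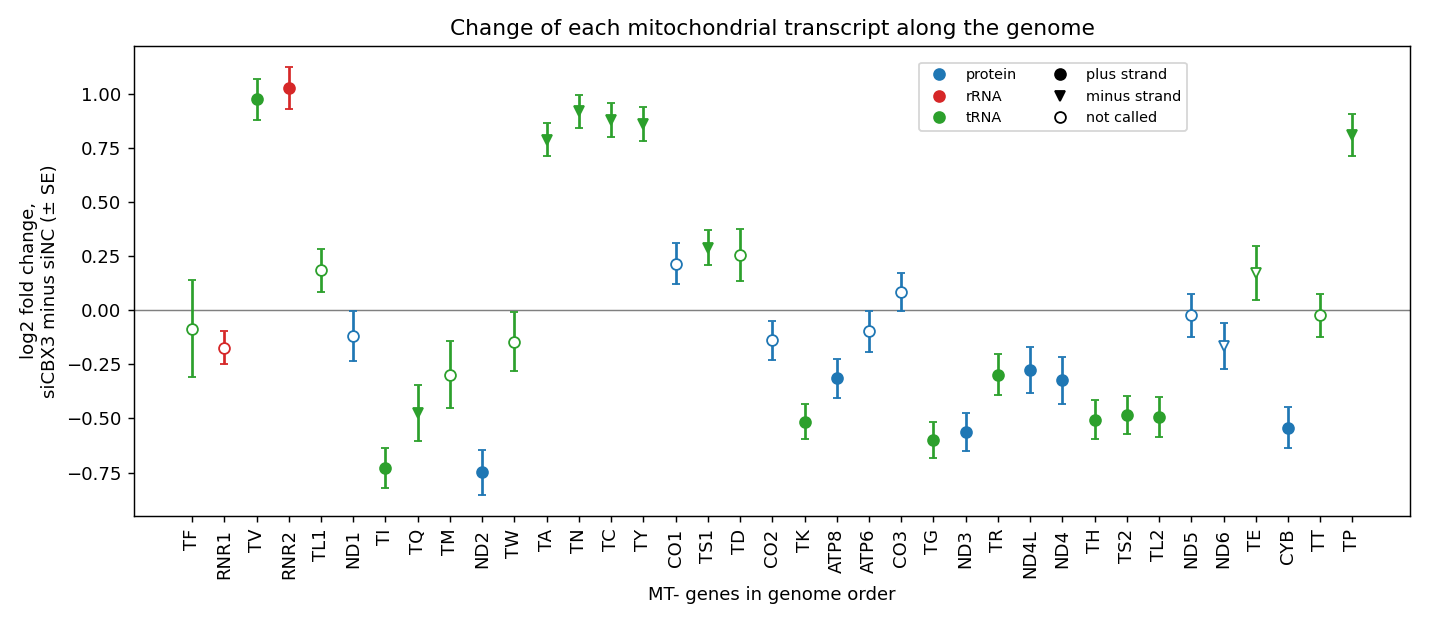
Log2 fold change (siCBX3 minus siNC, with its SE) of each of the 37 mitochondrial genes in genome order, coloured by class. Circles are plus-strand genes, triangles minus-strand genes, and open symbols genes that were not called. MT-RNR2 (1.03) and its neighbour MT-TV (0.98) stand highest on the plus strand, and MT-TA, MT-TN, MT-TC and MT-TY form a run of high values (0.79 to 0.92) between MT-ND2 and MT-CO1.

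MT-RNR2, the RNA of the large mitochondrial ribosomal subunit (MT, 1671 to 3229, plus strand), was the member that rose most. It had 18127 and 16332 CPM in siCBX3, against 9611 and 7313 CPM in siNC. Both siCBX3 libraries were well above both siNC libraries, with a log2 fold change of 1.03 (SE 0.10, adjusted p = 4.54e-09, edgeR). Leaving out any 1 library gave log2 fold changes of 0.84 to 1.24. The SE of MT-RNR2 was 0.21 in DESeq2 (adjusted p = 8.03e-06) and 0.23 in limma on log2 of RPKM plus 1 (adjusted p = 0.0258).

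MT-RNR1, the RNA of the small subunit (MT, 648 to 1601, plus strand), had 110.7 and 103.9 CPM in siCBX3, against 126.4 and 115.4 CPM in siNC. It lay lower in siCBX3 without overlap but was not called (log2 fold change -0.17, adjusted p = 0.0671, edgeR), while with library totals in place of TMM scaling it was called lower (-0.25, adjusted p = 0.00943, edgeR). The value was -0.11 without siNC replicate 1 (adjusted p = 0.294, edgeR), and without siNC replicate 2 it was -0.24 and called lower (adjusted p = 0.00915). The rRNAs also differed in level by far, with MT-RNR2 at 11227 and 10255 RPKM (counts per kilobase of gene, scaled to the library total) in siCBX3 and 6224 and 4899 RPKM in siNC, and MT-RNR1 at 112 and 107 RPKM in siCBX3 and 134 and 126 RPKM in siNC. The count ratio of MT-RNR2 to MT-RNR1 within a library was 164 and 157 in siCBX3, against 76.0 and 63.4 in siNC. The libraries were made with an mRNA kit, so these are not levels in total RNA.

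Scaling against the mitochondrial mRNAs of the same library kept this difference. MT-RNR2 counts were 0.236 and 0.257 of the summed MT- protein counts in siCBX3 and 0.112 and 0.107 in siNC. The ratio to its downstream neighbour MT-ND1 was 2.77 and 3.06 in siCBX3 and 1.26 and 1.39 in siNC. MT-TV, the valine tRNA that lies between the rRNA genes (MT, 1602 to 1670), had 41.4 and 43.3 CPM in siCBX3 and 23.4 and 19.7 CPM in siNC. It rose with a log2 fold change of 0.98 (SE 0.09, adjusted p = 6.60e-09, edgeR). MT-TL1, a leucine tRNA on the other side of MT-RNR2, was not called, at 52.2 and 47.3 CPM in siCBX3 and 49.5 and 38.1 CPM in siNC (0.19). It was called higher without siNC replicate 1, at 0.39, and was at 0.0086 without siNC replicate 2.

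Among the 7 subunits of complex I, the NADH dehydrogenase that takes electrons from NADH, 4 were called lower and 3 were not called. That is 57.1% lower, where 24.0% of all genes were called lower and 24.4% higher. MT-ND2 (MT, 4470 to 5511, plus strand), a membrane subunit, had 3416 and 2868 CPM in siCBX3, against 6077 and 4476 CPM in siNC. It fell furthest of the protein genes, without overlap (log2 fold change -0.75, SE 0.10, adjusted p = 2.00e-06, edgeR). It was also the member still called lower when libraries were scaled to their MT- protein counts, at -0.60. The SE of MT-ND2 was 0.26 in DESeq2 (adjusted p = 0.0125) and 0.21 in limma on log2 of RPKM plus 1 (adjusted p = 0.0295). The ratio of MT-ND2 to MT-CO1 counts was 0.396 and 0.390 in siCBX3, against 0.788 and 0.738 in siNC. These are the protein genes with the lowest and the highest log2 fold change, so this ratio is an extreme one. The ratio of MT-ND2 to MT-ND1 was 0.522 and 0.537 in siCBX3, against 0.796 and 0.850 in siNC.

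MT-ND3, a small membrane subunit, had 891 and 786 CPM in siCBX3 and 1362 and 1113 CPM in siNC. It fell without overlap (log2 fold change -0.56, SE 0.09, adjusted p = 9.46e-06, edgeR). MT-ND4 had 11387 and 9100 CPM in siCBX3 and 14742 and 10903 CPM in siNC, and MT-ND4L, read from the same mRNA, had 2519 and 2086 CPM in siCBX3 and 3226 and 2354 CPM in siNC. Both were called lower (-0.32 and -0.28, adjusted p = 0.0157 and 0.0331, edgeR), although the groups overlapped in each. Their calls rest on single libraries: without siNC replicate 1 the values were -0.09 for MT-ND4 and -0.03 for MT-ND4L, without siCBX3 replicate 2 they were -0.17 and -0.15, and neither was called then. Without siNC replicate 2 they were -0.52 and -0.49, and without siCBX3 replicate 1 they were -0.49 and -0.42.

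The other complex I subunits were not called. MT-ND1 had 6543 and 5341 CPM in siCBX3 and 7638 and 5269 CPM in siNC, with overlap (-0.12, adjusted p = 0.417, edgeR). MT-ND5 had 5369 and 4343 CPM in siCBX3 and 5491 and 4381 CPM in siNC (-0.02). MT-ND6, the only protein gene on the minus strand, had 1770 and 1350 CPM in siCBX3 and 1968 and 1529 CPM in siNC (-0.16). MT-ND1 and MT-ND5 were called higher without siNC replicate 1 (0.17 and 0.15) and lower without siNC replicate 2 (-0.36 and -0.18), so neither has a settled direction. MT-ND6 was called lower without siCBX3 replicate 1 (-0.37) and without siNC replicate 2 (-0.33).

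Of the 6 protein genes of the other complexes, 2 were called lower and none higher, where 24.0% and 24.4% of all genes were called so. With so few genes, these counts are not shown to differ from those shares. MT-CYB, the cytochrome b of complex III, had 2759 and 2299 CPM in siCBX3 and 4080 and 3287 CPM in siNC. It fell without overlap (-0.54, SE 0.09, adjusted p = 3.75e-05, edgeR). The SE of MT-CYB was 0.21 in DESeq2 (adjusted p = 0.0297) and 0.17 in limma on log2 of RPKM plus 1 (adjusted p = 0.0380). Scaled to MT- protein counts it was not called (-0.41, adjusted p = 0.206, edgeR). The 3 core subunits of complex IV, cytochrome c oxidase, were not called. MT-CO1 had 8630 and 7362 CPM in siCBX3 and 7711 and 6066 CPM in siNC (0.22, adjusted p = 0.0658, edgeR). It was called higher without siNC replicate 1 (0.40) and without siCBX3 replicate 2 (0.32), and was at 0.054 without siNC replicate 2 and at 0.096 without siCBX3 replicate 1. MT-CO2 had 2193 and 1869 CPM in siCBX3 and 2452 and 2019 CPM in siNC. MT-CO3 had 16423 and 13650 CPM in siCBX3 and 14918 and 13438 CPM in siNC. All 3 overlapped between groups. Without siNC replicate 2 MT-CO2 was called lower (-0.27), and without siNC replicate 1 MT-CO3 was called higher (0.16).

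In complex V, the ATP synthase, MT-ATP8 had 2001 and 1678 CPM in siCBX3 and 2503 and 2072 CPM in siNC. It was called lower without overlap (-0.31, SE 0.09, adjusted p = 0.00575, edgeR), at -0.17 without siNC replicate 1, and it was not called without siCBX3 replicate 2 (-0.19, adjusted p = 0.231). MT-ATP6 had 12995 and 10818 CPM in siCBX3 and 13933 and 11552 CPM in siNC and was not called (-0.10), although it was without siNC replicate 2 (-0.23). The genes share an mRNA and the bases printed above, yet the count ratio of MT-ATP8 to MT-ATP6 was 0.154 and 0.155 in siCBX3, against 0.180 and 0.179 in siNC. For MT-ND4L and MT-ND4, which also share an mRNA, that ratio was 0.221 and 0.229 in siCBX3 and 0.219 and 0.216 in siNC.

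**Figure D3:**
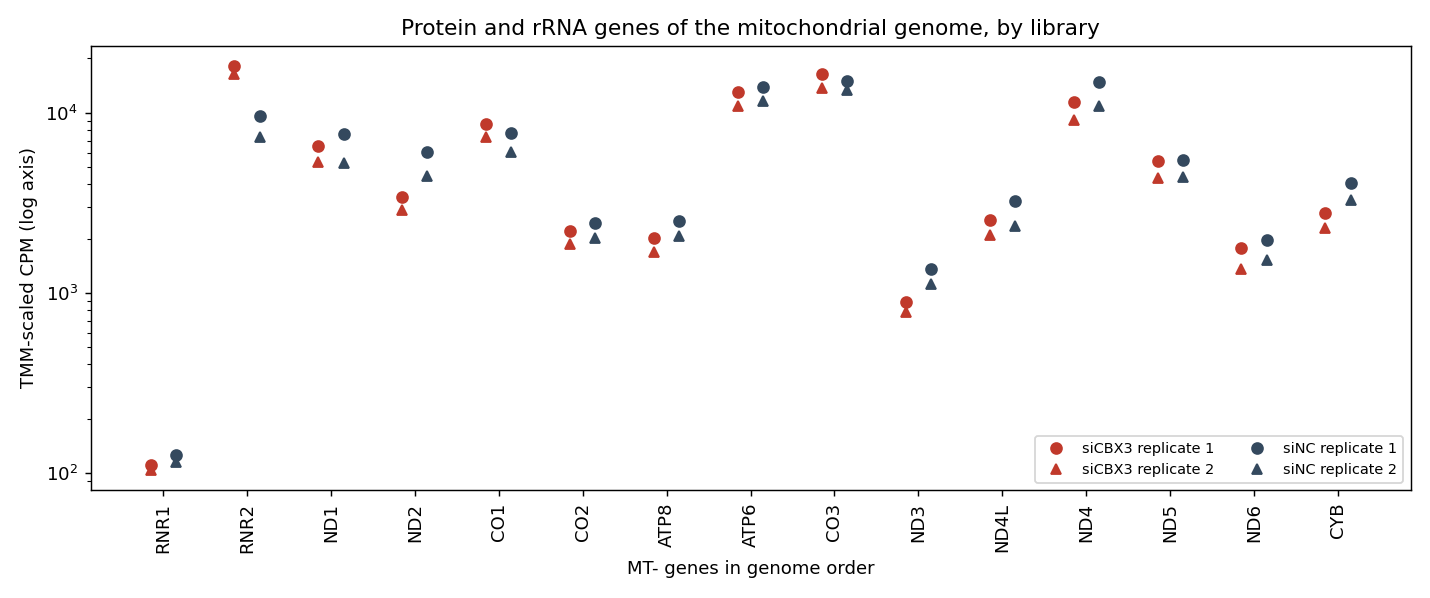
TMM-scaled CPM (log axis) of the 2 rRNA and 13 protein genes in each library, in genome order, siCBX3 left of siNC within each gene. MT-RNR2 is the rRNA with separated groups and a large gap (18127 and 16332 CPM in siCBX3, 9611 and 7313 CPM in siNC), and replicate 1 lies above replicate 2 for all 13 protein genes in both groups.

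Per length, MT-CO3 and MT-ATP6 were the most abundant members in every library. MT-CO3 had 20226 and 17044 RPKM in siCBX3 and 19213 and 17901 RPKM in siNC, and MT-ATP6 had 18425 and 15550 RPKM in siCBX3 and 20657 and 17717 RPKM in siNC, so their order did not hold beyond the spread. MT-RNR2 ranked 3 of 37 in both siCBX3 libraries and 7 in both siNC libraries. MT-ND2 ranked 11 in both siCBX3 libraries and 8 in both siNC libraries.

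The tRNA genes split by strand. Of the 8 on the minus strand 6 were called higher and 1 lower (median log2 fold change 0.80), and of the 14 on the plus strand 1 was called higher and 7 lower (median -0.30). The tRNAs called higher had a median GC content of 42.4% (range 33.8% to 49.3%), and those called lower one of 34.0% (23.1% to 48.6%). A tRNA gene covers 59 to 75 bases here, so mature tRNA and longer RNA that still contains it cannot be told apart in gene counts. As for the rRNAs, the mRNA kit means that these are not tRNA levels in total RNA. A tRNA said to rise or fall here is a gene whose counts did so. How strands were separated in counting is not given in the sources used here, so a minus-strand gene and RNA copied from the opposite strand cannot be told apart either.

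The cluster of 4 minus-strand tRNAs between MT-ND2 and MT-CO1 rose as a block. MT-TN, the asparagine tRNA, had 183 and 168 CPM in siCBX3, against 93.6 and 92.2 CPM in siNC (log2 fold change 0.92, SE 0.08, adjusted p = 3.75e-10, edgeR). MT-TC, the cysteine tRNA, had 232 and 207 CPM in siCBX3, against 123 and 116 CPM in siNC (0.88). Neither overlapped between groups. MT-TY, the tyrosine tRNA, had 206 and 182 CPM in siCBX3, against 111 and 102 CPM in siNC (0.86). MT-TA, the alanine tRNA, had 165 and 152 CPM in siCBX3, against 95.6 and 87.9 CPM in siNC (0.79). Set against the mRNA of MT-ND2 in the same library, the summed counts of these 4 tRNAs were 0.230 and 0.247 in siCBX3 and 0.0697 and 0.0890 in siNC. MT-ND2 is the protein gene that fell furthest, which widens this ratio.

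Of the other minus-strand tRNAs, MT-TP, the proline tRNA, had 28.3 and 28.4 CPM in siCBX3, against 16.9 and 15.4 CPM in siNC, and rose (0.81, SE 0.10, adjusted p = 1.90e-07, edgeR). MT-TS1, a serine tRNA that follows MT-CO1, had 121 and 113 CPM in siCBX3 and 103 and 88.9 CPM in siNC (0.29), and it was not called without siCBX3 replicate 1 (adjusted p = 0.0725, edgeR). Without siNC replicate 2 the value was 0.19. MT-TE, the glutamate tRNA, was not called (0.17), but was called higher without siNC replicate 1 (0.35) and without siCBX3 replicate 2 (0.41). MT-TQ, the glutamine tRNA, fell, with 288 and 291 counts in siCBX3 and 452 and 423 counts in siNC (log2 fold change -0.47), and it was not called without siNC replicate 1 (adjusted p = 0.0640, edgeR). It shares 3 bases with MT-TI on the opposite strand.

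On the plus strand, 7 of the 14 tRNAs were called lower, where 24.0% of all genes were. MT-TI, the isoleucine tRNA, had 20.4 and 18.4 CPM in siCBX3, against 32.1 and 32.3 CPM in siNC (-0.73, SE 0.09, adjusted p = 5.79e-07, edgeR). MT-TG, the glycine tRNA that precedes MT-ND3, had 72.7 and 68.0 CPM in siCBX3, against 115 and 98.5 CPM in siNC (-0.60). The groups did not overlap in either. MT-TK, the lysine tRNA, had 57.3 and 53.0 CPM in siCBX3 and 76.2 and 81.4 CPM in siNC (-0.52). The neighbours MT-TH, MT-TS2 and MT-TL2, for histidine, serine and leucine, fell by similar amounts (-0.50, -0.48 and -0.49). MT-TR, for arginine, had 82.0 and 69.4 CPM in siCBX3 and 103 and 82.6 CPM in siNC (-0.30), with values of -0.13 without siNC replicate 1 and -0.18 without siCBX3 replicate 2, neither of them called, and -0.45 without siNC replicate 2.

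The 7 tRNAs that were not called are MT-TF, MT-TL1, MT-TM, MT-TW, MT-TD, MT-TE and MT-TT. Their log2 fold changes ran between -0.30 (MT-TM) and 0.25 (MT-TD). MT-TM lay lower in siCBX3 without overlap. It was called lower with library totals (-0.38, adjusted p = 0.0486, edgeR) and on log2 of RPKM plus 1 (-0.37, adjusted p = 0.0252, limma). MT-TD was called higher without siNC replicate 1 (0.38) and was at 0.13 without siNC replicate 2. MT-TW was called lower without siCBX3 replicate 1 (-0.43) and without siNC replicate 2 (-0.39). MT-TF was the least abundant member, with 78 and 84 counts in siCBX3 and 95 and 92 counts in siNC (-0.08, adjusted p = 0.783, edgeR).

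**Figure D4:**
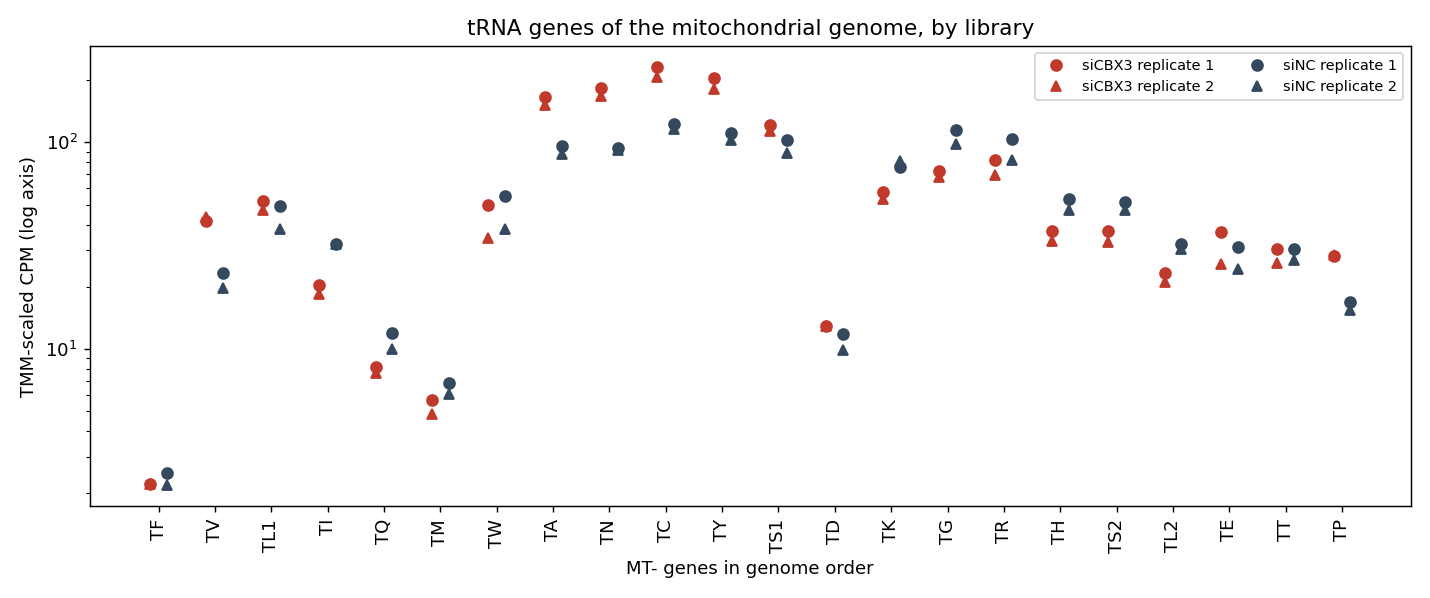
TMM-scaled CPM (log axis) of the 22 tRNA genes in each library, in genome order, siCBX3 left of siNC within each gene. The siCBX3 points of MT-TA, MT-TN, MT-TC and MT-TY lie above the siNC points (for MT-TN 183 and 168 CPM against 93.6 and 92.2 CPM), while those of MT-TI, MT-TG and MT-TK lie below.

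The libraries also differed by replicate number within each group, in the same direction for nearly every member. Replicate 1 was above replicate 2 for 33 of the 37 members in siCBX3 and for 35 in siNC, and for all 13 protein genes in both groups. The median log2 ratio of replicate 1 to replicate 2 over the protein genes was 0.26 in siCBX3 and 0.33 in siNC. The siNC gap exceeds the difference between groups of the 7 protein genes that were not called, and also that of 3 that were called, MT-ND4, MT-ATP8 and MT-ND4L (-0.32, -0.31 and -0.28). The gap of MT-ND4 itself was 0.32 in siCBX3 and 0.44 in siNC. It is smaller than the difference of MT-RNR2, whose ratio of replicate 1 to replicate 2 was 0.15 in siCBX3 and 0.39 in siNC on the log2 scale. The source of the gap was not tested.

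Near-identical copies of mitochondrial genes in the nuclear genome can take reads from the members, or give reads to them. The table holds 150 rows named as such copies, and their counts came to 5.76% and 5.82% of the mitochondrial counts in siCBX3 and to 7.02% and 6.92% in siNC. MTATP6P1 (chr1:633696-634376, plus strand) alone took 148770 and 129286 counts in siCBX3 and 189720 and 161067 in siNC. It matches MT-ATP6 at 671 of 681 bases. The first 60 bases of each are printed below, with the base that differs in capitals.
MT-ATP6: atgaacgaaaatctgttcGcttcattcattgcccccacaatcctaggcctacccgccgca
MTATP6P1: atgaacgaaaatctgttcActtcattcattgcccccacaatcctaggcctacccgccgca

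The copies varied as their mitochondrial genes did in some cases and not in others. MTND2P28, a copy of MT-ND2, fell (log2 fold change -0.65, adjusted p = 2.64e-07, edgeR), as did MT-ND2. MTND1P23 fell (-0.47), while MT-ND1 was not called. MTND4P12 fell (-0.42), and MTCO1P12, MTCO3P12 and MTATP6P1 were not called (0.09, -0.08 and -0.22). Which genome such reads came from was not tested.

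Nuclear genes supply every protein that copies, cuts, modifies and degrades mitochondrial RNA, so those lists were read beside the members. The lists, too, were chosen with earlier results of these data known. Of 85 genes for mitochondrial gene expression, 12 were called higher and 38 lower, that is 14.1% and 44.7%, against 24.4% and 24.0% of all genes tested. Their median log2 fold change was -0.20. TFAM, which packages mitochondrial DNA and starts its transcription, had 34.5 and 36.9 CPM in siCBX3, against 54.6 and 60.4 CPM in siNC, and fell (-0.69, SE 0.09, adjusted p = 3.36e-07, edgeR). POLRMT, the mitochondrial RNA polymerase, had 84.8 and 72.7 CPM in siCBX3 and 80.3 and 81.7 CPM in siNC and was not called (-0.04). TFB2M, its initiation factor, was not called either (-0.22), although it was without siNC replicate 2 (-0.29). TEFM, which helps it elongate and shares 26.1% of its exon bases with another tested gene, was called higher (0.44), but not without siCBX3 replicate 2 (0.31, adjusted p = 0.222, edgeR) or without siNC replicate 2 (0.43, adjusted p = 0.0551).

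Among genes for upkeep of mitochondrial DNA, 3 of 16 were called higher and 10 lower, that is 18.8% and 62.5%, against 24.4% and 24.0% of all genes. TOP1MT, a mitochondrial topoisomerase, rose to 120 and 120 CPM in siCBX3, against 62.3 and 71.3 CPM in siNC (0.84), while SSBP1, which binds single-stranded DNA, fell to 68.4 and 69.7 CPM in siCBX3, against 106 and 103 CPM in siNC (-0.60). Among 26 genes that process or modify mitochondrial RNA, 3 were called higher and 12 lower (11.5% and 46.2%, against the same shares). KIAA0391, the catalytic part of the enzyme that trims the 5′ end of mitochondrial tRNAs, rose (0.62), although 45.9% of its exon bases are shared with another tested gene. MRM3 and MRM2, which methylate MT-RNR2, fell (-0.74 and -0.51); MRM3 shares 34.9% of its exon bases.

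Of 20 genes for stability and decay of mitochondrial RNA, 1 was called higher and 11 lower, where 24.4% and 24.0% of all genes were called so. Without siCBX3 replicate 1, 4 were called lower, where 19.6% of all genes were called lower and 20.5% higher. LRPPRC, which stabilises mitochondrial mRNAs, had 197 and 214 CPM in siCBX3, against 167 and 159 CPM in siNC, and rose (0.33, SE 0.07, adjusted p = 6.47e-04, edgeR). Its partner SLIRP had 96.3 and 107 CPM in siCBX3, against 146 and 154 CPM in siNC, and fell (-0.56), with 14.9% of its exon bases shared. PNPT1, a subunit of the mitochondrial RNA-degrading complex, fell (-0.50), while its helicase partner SUPV3L1 and the poly(A) polymerase MTPAP were not called (0.11 and -0.21); MTPAP was called lower without siCBX3 replicate 2 (-0.43). Of 14 translation factors 3 were called higher and 2 lower, that is 21.4% and 14.3%, with neither share above that over all genes. Of 18 regulators of mitochondrial biogenesis tested, 6 were called higher and 5 lower (33.3% and 27.8%, against 24.4% and 24.0% of all genes). Among them PPARGC1A was low, with 0.681 and 0.818 CPM in siCBX3 and 1.80 and 1.38 CPM in siNC (-1.08). It was not called without siNC replicate 1 (-0.87). Of 12 mitochondrial housekeeping genes 2 were called higher and 3 lower (16.7% and 25.0%).

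The nuclear subunits of the respiratory complexes, with which the members' proteins assemble, had 10 of 77 called higher and 34 lower, where 24.4% and 24.0% of all genes were called so and 44.2% of the subunits were lower. For complex IV this was none higher and 7 lower of 11 (63.6% lower), with COX7C at 77.2 and 92.8 CPM in siCBX3 and 134 and 162 CPM in siNC (-0.80), beside mitochondrial complex IV genes that were not called. Across all 202 nuclear list genes tested, 37 were called higher and 80 lower (18.3% and 39.6%). With library totals in place of TMM scaling these were 26 and 101, while over all genes the shares moved the same way, to 20.2% higher and 28.2% lower. On the log2 RPKM scale they were 20 and 75, with 17.1% of all genes higher and 23.9% lower. Of the 10 mitophagy genes 7 were called higher (70.0%, against 24.4% of all genes) and none lower (against 24.0%), OPTN most (2.07).

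**Figure D5:**
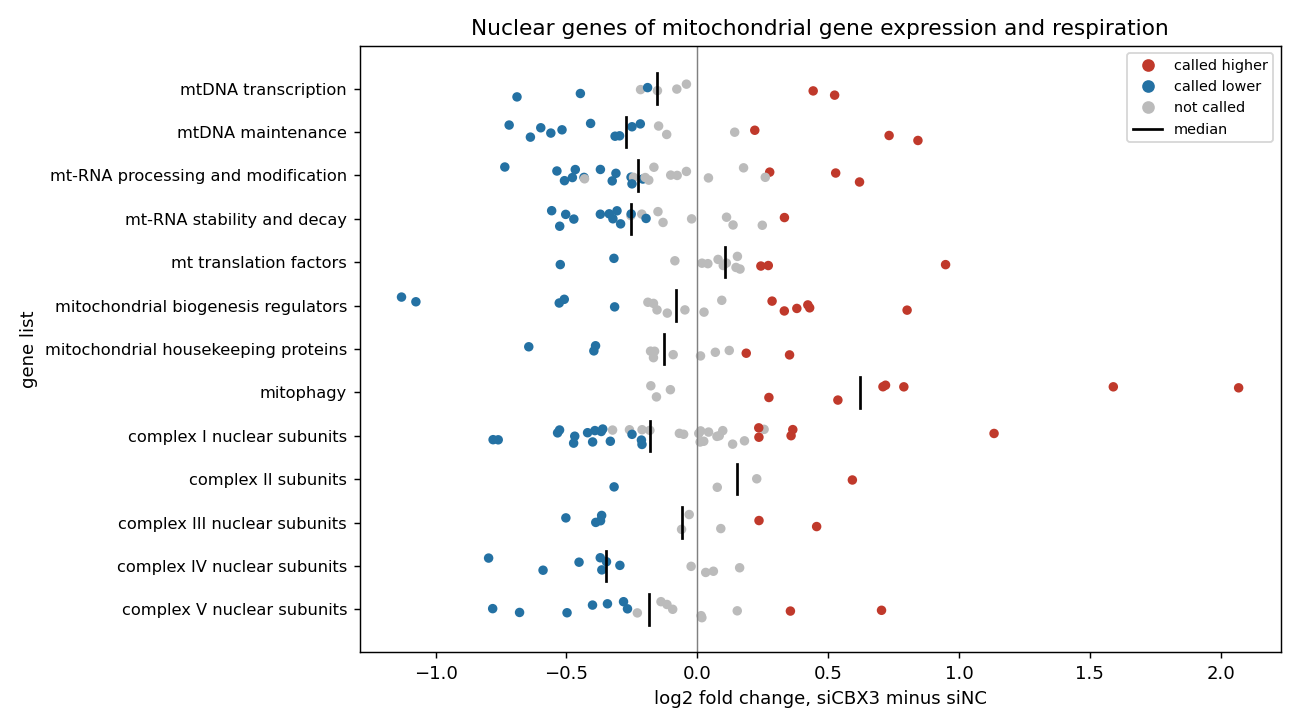
Log2 fold change (siCBX3 minus siNC) of the tested nuclear genes, 1 point each, by list, with a bar at each list's median. Red points were called higher, blue lower and grey not called. The median of the complex IV list is -0.35 and that of the mitophagy list 0.62.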

How the data were processed

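Read counts per gene and RPKM values of 4 libraries were used. The submitters' processing notes name STAR 2.5.3a, featureCounts (Subread 1.5.1), Trimmomatic 0.36 and build GRCh38, without roles or order. The sources used here do not give settings for strand or for reads that match several places. The authors deposited raw counts per gene, and separately deposited RPKM values, which match the counts divided by length and library total within a relative 3.79e-07. Of nonzero counts under 50, 72.2% to 73.1% were even, and whether both ends of a fragment were counted was not tested.

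The members and lists were chosen with earlier results of these data known. The count test used edgeR 4.0.16 in R 4.3.3. Its filterByExpr (minimum count 10, minimum total 15) kept 20999 of 37450 genes, libraries were scaled by TMM, and the quasi-likelihood fit had a group term (2 residual and 22.0 prior degrees of freedom). The prior degrees of freedom outnumber the residual ones, so edgeR p-values rest mostly on spread pooled over all genes tested. They can understate the replicate scatter of a single member. The SE of MT-ND4 was 0.11 in edgeR and 0.27 in DESeq2, while that of MT-CO2 was 0.09 and 0.10. Calls have a Benjamini-Hochberg adjusted p under 0.05. DESeq2 1.42.0 and limma 3.58.1 (on log2 of RPKM plus 1 or 0.1) gave alternatives. The fit was tested on simulated data with 50 planted changes at each size. It recovered 12 at 1.25-fold, 24 at 1.5-fold, 38 at 2-fold and 49 at 4-fold, and 13 of its 136 calls were false. A member that was not called can therefore still differ by a small amount. The genes named are all MT- protein and rRNA genes, tRNA genes with at least 100 counts in 1 library, copies with at least 1000 counts in 1 library, CBX3, named expression factors, and called list members by smallest adjusted p; MT-TF falls outside this rule and was chosen after its values were seen. No sequence was read from the libraries. Precision depends on depth, and counting intervals treat reads as independent molecules.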

Additional observations from a re-analysis of the deposited data

How the results depend on the processing

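Across 13 other settings (library totals, upper-quartile factors, DESeq2, 2 count filters, RPKM, nuclear library sizes, a replicate block and leaving out each library), 16 of the 22 called members were called in each, 7 higher and 9 lower. How many of all called genes were called in each was not counted, so this is not shown to be particular to the members. Which members were called, and in which direction, shifted when 1 library was left out, where 1 group then rests on a single library. Scaled to MT- protein counts, which moved the median of all genes to 0.13, 1 member was called lower, with calls over all genes falling to 2449 higher and 1204 lower, against 5132 and 5041. The labels do not pair the replicates. Over all genes tested the correlation of same-numbered deviations was 0.0287, which does not describe the members. Among the 37 members replicate 1 lay above replicate 2 for 33 in siCBX3 and for 35 in siNC. The replicate block gave 10 members higher and 17 lower, with 5 calls gained and none lost. Over all genes it gave 5371 higher and 5259 lower, against 5132 and 5041 in the main fit. Nuclear list members called higher numbered 20 on RPKM plus 1 and on RPKM plus 0.1, where 3584 and 3606 of all 20999 genes were called higher.

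Some log2 fold changes that were not called changed sign. Over the fits that left out 1 library, MT-TF ran from -0.19 to 0.020, MT-ND1 from -0.36 to 0.17, MT-TW from -0.43 to 0.14, MT-CO2 from -0.27 to 0.0083, MT-ATP6 from -0.24 to 0.044, MT-CO3 from -0.055 to 0.21, MT-ND5 from -0.18 to 0.15, MT-ND6 from -0.37 to 0.029, MT-TE from -0.10 to 0.41, MT-TT from -0.14 to 0.088 and POLRMT from -0.16 to 0.065. Scaled to MT- protein counts, MT-TF was 0.056, MT-ND1 0.030, MT-ATP6 0.037, MT-ND5 0.11 and MT-TT 0.11. Of the 15 members not called, MT-TF, MT-TM and MT-TT were called in none of the fits that left out 1 library. The matching share over all genes was not counted. Without siNC replicate 1, MT-ND1, MT-ND5, MT-CO3, MT-CO1, MT-TE, MT-TL1 and MT-TD were called higher. Without siNC replicate 2, MT-ND1, MT-ND5, MT-ND6, MT-CO2, MT-ATP6, MT-TW and MT-RNR1 were called lower. The cause was not tested. With 2 libraries a group, differences near the gap between replicates cannot be resolved.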
